A study of Mus musculus with 64 samples.

Results

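Total RNA of microglia, the resident macrophages of the brain, was sequenced in adult male C57BL/6 mice (C57BL6/N in the study's methods) from 2 regions, hippocampus and frontal cortex. The 64 libraries fall into 16 groups of 4, given by region, by phase (Day or Night) and by a condition named Soci, Cogn, Ctr0 or Ctr1. The subject here is a list of 40 cell cycle and DNA replication genes among the 49671 genes of the count table, each taken by its Ensembl identifier and GENCODE M21 symbol. The list was read as 12 replication genes, 18 mitosis genes, 7 genes of the G1/S step and 3 brakes, which hold the cycle back.

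No genotype beyond the strain is given, and the study's methods place the animals in a reversed light-dark cycle with sampling in the light and in the dark phase. The labels do not spell out what the condition names stand for, so the names are used as they stand. Cells were dissociated at low temperature and caught on magnetic beads against CD11b, an integrin that microglia share with other macrophages, monocytes and neutrophils. Nothing in the labels says whether the 4 libraries of a group came from separate animals, or whether hippocampal and cortical libraries of the same number share one. P-values therefore measure the spread between libraries, which may be technical in part. Each library is a bulk sample, in which fewer cells of a type and less RNA per cell cannot be told apart.

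A cell that commits to division first makes D-type cyclins, which with their kinases free the E2F factors, and E2F then switches on the genes that copy DNA. The replicative helicase of the Mcm proteins, the sliding clamp PCNA and the enzymes that make deoxynucleotides serve the S phase. A later wave of genes, read through the CCAAT box and the cell cycle homology region (CHR) of their promoters, builds the spindle and kinetochores for mitosis. Microglia of the healthy adult brain renew slowly, and few of them are in cycle at a time.

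The promoters below are those of genes from both waves. Mki67 and Cenpf stand for the mitosis genes that were higher by day in both regions, and Mcm2 and Mcm5 for the replication genes that were lower by day in both. Each stretch runs from 150 bases before to 30 bases after the RefSeq start on build GRCm38.p6, read 5′ to 3′ on the strand of the gene. Capitals mark, on either strand, the CCAAT box, the CHR letters TTTGAA and, for E2F, the letters TTTGGCGC. The CHR variant TTCGAA and the E2F variant TTTCCCGC were searched for as well.
Mki67, chr7:135716350-135716529, minus strand: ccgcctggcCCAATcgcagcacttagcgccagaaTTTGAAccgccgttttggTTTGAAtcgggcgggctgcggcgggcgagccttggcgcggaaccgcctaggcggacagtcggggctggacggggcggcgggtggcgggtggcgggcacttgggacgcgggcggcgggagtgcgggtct
Cenpf, chr1:189688057-189688236, minus strand: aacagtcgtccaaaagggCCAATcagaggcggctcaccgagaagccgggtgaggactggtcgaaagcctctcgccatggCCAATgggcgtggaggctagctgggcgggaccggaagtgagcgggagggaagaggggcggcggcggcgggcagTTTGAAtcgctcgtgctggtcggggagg
Mcm2, chr6:88898751-88898930, minus strand: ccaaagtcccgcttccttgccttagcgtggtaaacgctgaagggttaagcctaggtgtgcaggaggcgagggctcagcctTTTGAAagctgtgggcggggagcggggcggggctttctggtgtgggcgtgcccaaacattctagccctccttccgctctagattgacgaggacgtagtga
Mcm5, chr8:75109359-75109538, plus strand: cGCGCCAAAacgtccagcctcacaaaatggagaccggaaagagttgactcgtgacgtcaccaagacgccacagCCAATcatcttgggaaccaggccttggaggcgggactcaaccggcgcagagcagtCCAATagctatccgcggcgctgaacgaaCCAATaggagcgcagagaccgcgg

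RefSeq windows of 250 bases before to 50 bases after the start were matched for 32 of the 40 genes. CHR letters were present for 11 of 15 mitosis genes (73.3%) and 2 of 11 replication genes (18.2%), against 19.2% of all 32851 windows. E2F letters were present for 5 of 11 replication genes (45.5%) and 0 of 15 mitosis genes, against 1.56% of all windows. The CCAAT box was found for 13 of the mitosis genes and 10 of the replication genes, against 37.4% of all windows. The E-box CACGTG, the letters that CLOCK and BMAL1 bind, occurred in a window of 1 member, Tyms (all windows, 7.15%). CHR letters occurred both for Mki67, higher by day, and for Mcm2, lower by day, and E2F letters both for Mcm5 and for Mcm7, which also differed in direction. Mcm2, though a replication gene, had no E2F letters in its window. These are matches of letters, given without a test. Aurkb, Ccna2, Ccnd1, Ccnd2, Ccne2, Mcm4, Tpx2 and Wee1 had no window.

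Library totals ran from 11.6 M to 84.5 M counts in the hippocampus (median 17.6 M) and from 10.2 M to 26.3 M in the frontal cortex (median 13.4 M). A count of 3, used as the floor, equalled 0.0310 to 0.280 CPM in hippocampal and 0.107 to 0.316 CPM in cortical libraries. CPM here is a count scaled to library depth with TMM factors, and such limits cover counting error only. The summed level of 10 microglia markers lay between 12149 and 25376 CPM in every library, and the lymphocyte markers summed to at most 1.62 CPM. Markers of other cells were present, and several lists moved with phase; they are given with the day-night results.

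The levels of the 40 genes were ordered per kilobase of exon, the scale on which genes can be compared. The median over the replication genes was 1.05 CPM per kb and that over the mitosis genes 0.209, and the sets overlapped, with Prim1 (0.465) and Rrm2 (0.229) among the mitosis genes in this order. Ccnd1 (cyclin D1) had the highest median over the 64 libraries, 14.0 CPM per kb, followed by the kinase inhibitor Cdkn1b (p27) with 8.82, Ccnd3 (cyclin D3) with 7.56 and Pcna with 7.45. The helicase subunits spread from Mcm3 with 5.77 CPM per kb to Mcm2 with 0.594. The 18 mitosis genes had medians from 0.0860 CPM per kb (Bub1, a spindle checkpoint kinase) to 0.562 (Ccnb2, cyclin B2). Neighbours in this order mostly overlapped: Ccnb2 spanned 0.202 to 1.05 CPM per kb, Mki67 0.143 to 1.27 and Plk1 0.168 to 0.921. Bub1 had a count of 0 in 3 libraries. The deposited counts could share reads between Pcna, Tyms, Ccnb1, Ccnb2 or Ccnd3 and their named pseudogenes, since the treatment of reads with several positions was not stated.

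**Figure D1:**
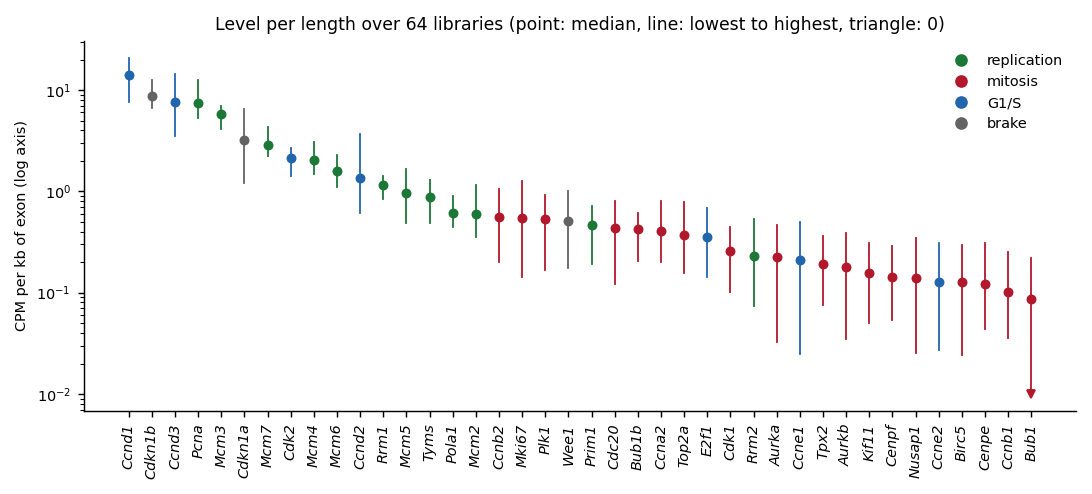
Median level per kilobase of exon (log axis) of the 40 genes over 64 libraries, with lines from the lowest to the highest library and colours by set. Ccnd1 led with 14.0 CPM per kb, and no mitosis gene had a median above 0.562.

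The first comparison asked how the cell cycle genes differed between day and night. In the hippocampus 33 of the 40 genes had enough counts to be tested by edgeR's quasi-likelihood test over 16 day and 16 night libraries. Of these, 19 differed at an adjusted p under 0.05, against 42.2% of all genes tested. By day 13 were higher (all genes, 23.4%) and 6 were lower (all genes, 18.8%). For the frontal cortex 30 were tested and 11 differed (all genes, 41.8%), 8 of them higher by day (all genes, 20.6%) and 3 lower (all genes, 21.3%). All 11 had also passed, with the same sign, in the hippocampus, where they make up 57.9% of the calls. The overlap between regions over all genes was not taken, so this sharing was not shown to be particular to members. The median log2 change of the genes tested was 0.11 in the hippocampus and 0.13 in the frontal cortex, beside 0.02 and -0.02 over all genes. With library totals in place of TMM scaling, the median of all genes shifted to -0.14 and -0.09. The split of member calls then became 3 higher and 6 lower in the hippocampus, and 4 higher and 3 lower in the frontal cortex. The 3 rises left in the hippocampus were those of Rrm2, Mki67 and Cenpf. Without replicate 1 of every group the hippocampal calls were 12. These recounts are of members only, without the share of all genes called higher or lower. A shift in them was not shown to be particular to members.

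**Figure D2:**
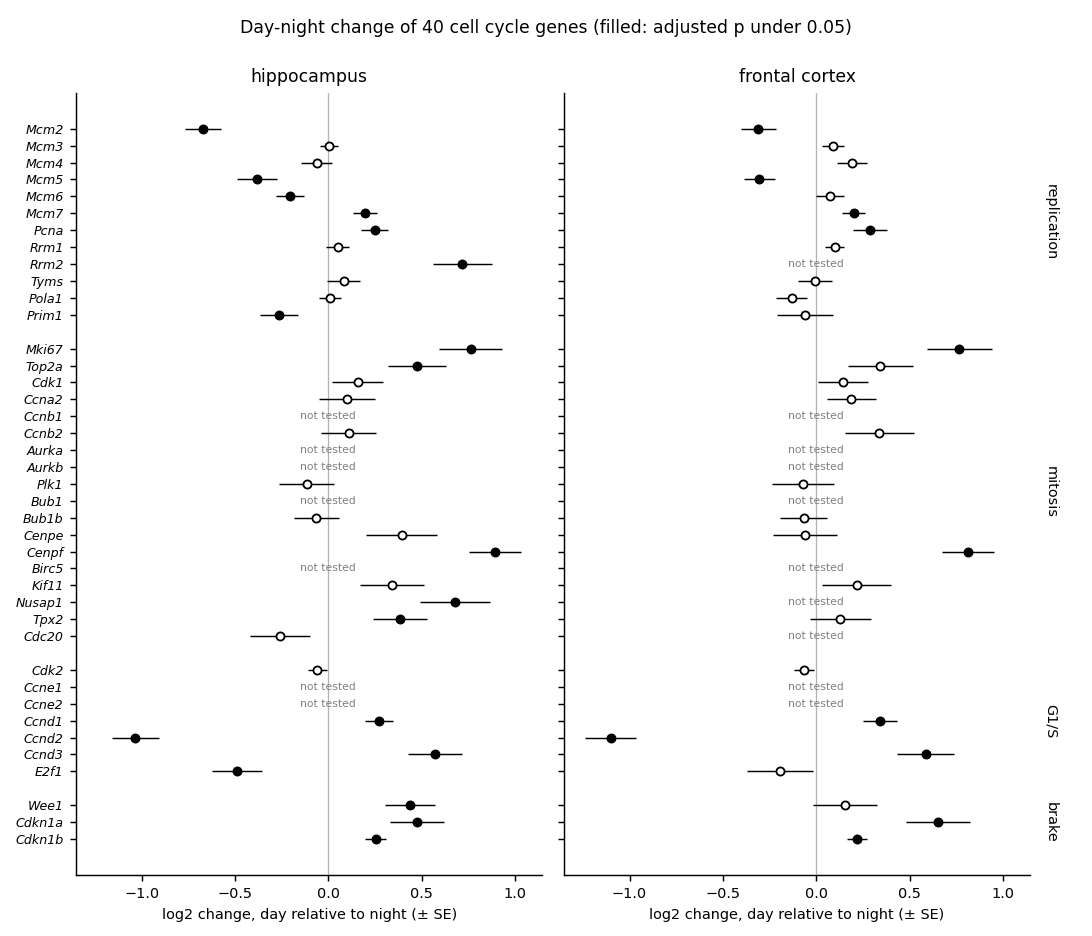
Day-night log2 change (± SE) of each gene in hippocampus (left) and frontal cortex (right), 16 day against 16 night libraries, by set, with filled points at an adjusted p under 0.05. Replication genes lie on both sides of 0, from -0.67 (Mcm2) to 0.72 (Rrm2) in the hippocampus, and every mitosis gene that passed lies above 0 (with library totals, Mki67 and Cenpf only).

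The replication genes did not move as a block. In the hippocampus all 12 were tested, with 3 higher and 4 lower by day and a median log2 change of 0.01. The cortical fit tested 11, with 2 higher and 2 lower and a median of 0.07. Of all genes 23.4% were higher and 18.8% lower in the hippocampus, and 20.6% and 21.3% in the frontal cortex, so the shares of replication genes higher by day were near those of all genes.

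Mcm2, a subunit of the helicase (chromosome 6, 88883474 to 88898780, minus strand, GRCm38), fell by day. Its hippocampal libraries ran from 2.77 through a median of 3.41 to 5.21 CPM by day and from 3.33 through 5.86 to 8.01 CPM by night. The groups overlapped little, with 14 of 16 night libraries above the highest day library. The log2 change was -0.67 ± 0.10 (SE; adjusted p 1.3e-06). Cortical day libraries ran from 2.44 through 3.52 to 4.83 CPM and night libraries from 3.05 through 4.57 to 6.07, with more overlap, at a log2 change of -0.31 ± 0.09 (adjusted p 0.0078). The cortical call was lost without replicate 4 (log2 change -0.23; adjusted p 0.078).

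Mcm5, another subunit, was lower by day in both regions. Its hippocampal libraries ran from 2.67 through 3.21 to 4.75 CPM by day and from 2.67 through 4.71 to 6.60 by night, a log2 change of -0.38 ± 0.11 (adjusted p 0.0046). Its cortical libraries ran from 1.94 through 3.51 to 4.69 CPM by day and from 3.66 through 4.10 to 5.27 by night, a change of -0.30 ± 0.08 (adjusted p 0.0040). There, 11 of 16 day libraries lay below the lowest night library.

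Mcm7 went the other way from Mcm2 and Mcm5. It was higher by day by a log2 of 0.20 ± 0.06 in both regions (adjusted p 0.013 in the hippocampus and 0.010 in the frontal cortex). The hippocampal call was lost on leaving out the Day Soci 2 library (adjusted p 0.051). Of 18 other settings, 8 lost the hippocampal call and 5 the cortical one, library totals among them in both regions, with no change of sign. Within conditions the hippocampal Mcm7 change was 0.38 in Soci, 0.24 in Cogn, -0.03 in Ctr0 and 0.00 in Ctr1. Mcm6 was lower by day in the hippocampus, -0.21 ± 0.07 (adjusted p 0.024), and its cortical value was 0.07 ± 0.08 (adjusted p 0.45). Mcm3 and Mcm4 passed in neither region, with log2 changes of 0.00 and -0.06 in the hippocampus and 0.09 and 0.19 in the frontal cortex. The 6 subunits assemble into one ring. Among their messages that passed, Mcm7 alone was higher by day, a call that library totals did not keep.

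Pcna, the clamp that holds polymerases on DNA, was higher by day in both regions, by 0.25 ± 0.07 (adjusted p 0.0047) in the hippocampus and 0.29 ± 0.09 (adjusted p 0.0097) in the frontal cortex. Its medians were 18.3 CPM by day and 16.8 by night in the hippocampus, and 19.1 and 15.8 in the frontal cortex. Of 18 other settings, 5 lost the hippocampal Pcna call and 7 the cortical one, with no change of sign. Library totals and leaving out replicate 1 or 2 were among them in both regions. Rrm2, the regulated subunit of ribonucleotide reductase, had a hippocampal median of 0.953 CPM by day (0.485 to 1.47) and 0.601 by night (0.280 to 0.830). Its 9 highest day libraries lay above every night library, and the log2 change was 0.72 ± 0.16 (adjusted p 4.5e-04). It was too low to be tested in the frontal cortex, where medians were 0.668 and 0.491 CPM. Prim1, the primase, was lower by day in the hippocampus, -0.26 ± 0.10 (adjusted p 0.049). Its call held on leaving out 21 of the 32 hippocampal libraries one at a time, with log2 changes between -0.31 and -0.23. It was lost without Day Soci 1, Day Ctr0 1, 2 or 3, Day Ctr1 2, 3 or 4, Night Cogn 1, Night Ctr0 2 or Night Ctr1 3 or 4, at adjusted p up to 0.12.
Rrm1, the large subunit of the reductase, Tyms, which makes thymidylate, and Pola1, the catalytic subunit of DNA polymerase alpha, passed in neither region, with log2 changes between -0.13 and 0.10.

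Every mitosis gene that passed was higher by day. In the hippocampus 13 of the 18 were tested, 5 were higher (all genes, 23.4%) and 0 lower (all genes, 18.8%), and the median log2 change was 0.34. At an unadjusted p under 0.05 there were 6, all higher. Of 11 tested in the frontal cortex, 2 were higher, a share near the 20.6% of all genes, and 0 lower (all genes, 21.3%), and the median was 0.19. Under library totals Mki67 and Cenpf were the ones that passed in both regions.

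Mki67, which encodes the Ki-67 protein of proliferating cells (chromosome 7, 135689784 to 135716361, minus strand), was among them. Its hippocampal libraries ran from 4.27 through a median of 8.75 to 12.7 CPM by day and from 2.50 through 5.58 to 9.04 CPM by night. The log2 change was 0.76 ± 0.17 (adjusted p 4.1e-04). Cortical libraries ran from 4.60 through 5.78 to 12.5 CPM by day and from 1.44 through 3.39 to 6.41 by night, a change of 0.77 ± 0.17 (adjusted p 6.8e-04). All 16 cortical day libraries lay above the night median. Leaving out any 1 library kept the change between 0.69 and 0.81 in the hippocampus and between 0.66 and 0.84 in the frontal cortex.

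Cenpf, a kinetochore protein (chromosome 1, 189640606 to 189688086, minus strand), separated the phases further. Hippocampal libraries ran from 1.80 through 3.07 to 4.41 CPM by day and from 0.848 through 1.60 to 2.62 by night, a log2 change of 0.89 ± 0.14 (adjusted p 5.2e-06). Cortical libraries ran from 1.69 through 2.58 to 4.18 CPM by day and from 0.824 through 1.47 to 2.36 by night, a change of 0.81 ± 0.14 (adjusted p 2.8e-05). In each region 11 of 16 day libraries lay above the highest night library.

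Top2a, the topoisomerase that untangles chromosomes, was higher by day in the hippocampus by 0.48 ± 0.16 (adjusted p 0.013), with medians of 3.95 and 3.33 CPM. Nusap1, a spindle protein, was higher by 0.68 ± 0.19 (adjusted p 0.0037), with medians of 0.934 and 0.502 CPM. Tpx2, which activates Aurora A on the spindle, was higher by 0.38 ± 0.15 (adjusted p 0.033), a call that held on leaving out 20 of the 32 libraries one at a time. It was lost without Day Soci 2, Day Cogn 3 or 4, Day Ctr0 1 or 3, Day Ctr1 1, Night Soci 1, 3 or 4 or Night Cogn 2, 3 or 4, at adjusted p up to 0.072. Cortical Top2a had a log2 change of 0.34 ± 0.17 (adjusted p 0.11) and Tpx2 of 0.13 ± 0.16 (adjusted p 0.55), and Nusap1 was not tested there.

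The core engine of mitosis did not pass in either region. Cdk1, the mitotic kinase, had log2 changes of 0.16 ± 0.14 in the hippocampus and 0.14 ± 0.14 in the frontal cortex. Ccna2 (cyclin A2) had 0.10 ± 0.15 and 0.19 ± 0.13, Ccnb2 0.11 ± 0.15 and 0.34 ± 0.18, and Plk1 (polo-like kinase) -0.12 ± 0.15 and -0.07 ± 0.17. Bub1b, of the spindle checkpoint, had -0.07 ± 0.12 and -0.07 ± 0.13. The kinesin Kif11 had 0.34 ± 0.17 and 0.22 ± 0.18, and the kinetochore motor Cenpe 0.39 ± 0.19 and -0.06 ± 0.17. Cdc20, which switches on the anaphase-promoting complex, had -0.26 ± 0.16 in the hippocampus. It was not tested in the frontal cortex (0.228 to 1.25 CPM). The standard errors of these genes were 0.12 to 0.19, and a value that missed the threshold does not show that the phases were alike.

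The remaining mitosis genes fell under the count filter in both regions. Ccnb1 (cyclin B1) ran from 0.152 to 1.07 CPM, Aurka from 0.0816 to 1.18, Aurkb from 0.103 to 1.14, Birc5 (survivin) from 0.0830 to 1.01 and Bub1 from 0 to 0.952. Their lowest libraries held 0 to 2 counts of the gene.

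**Figure D3:**
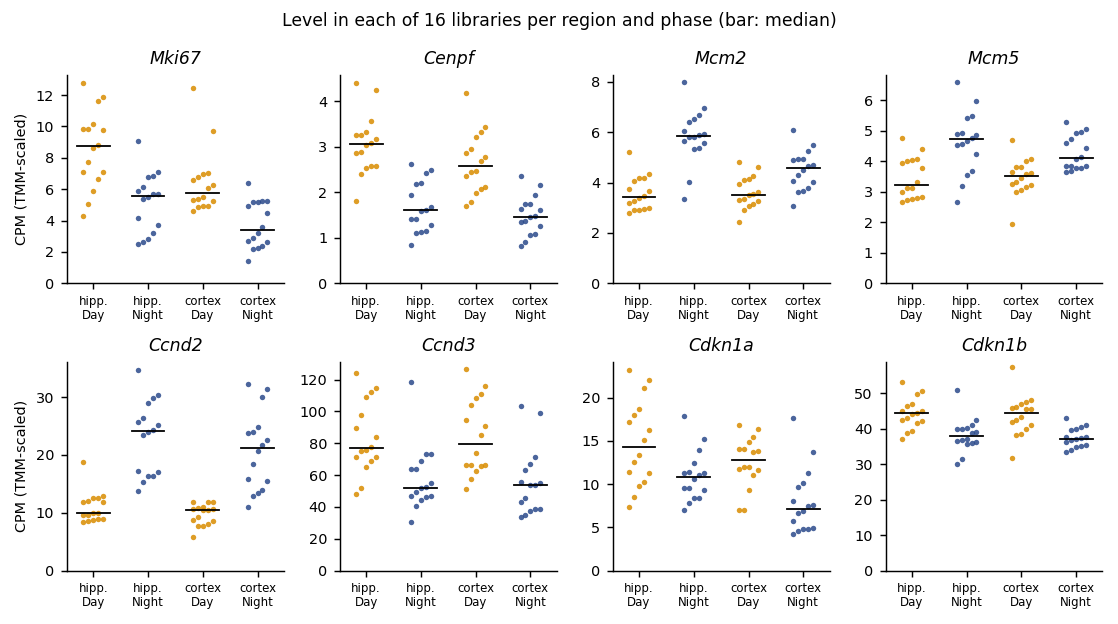
Level in CPM of 8 genes in each of the 16 libraries per region and phase, with bars at the medians. Mki67 and Cenpf sit higher by day in both regions, Mcm2, Mcm5 and Ccnd2 lower, and Ccnd2 has 15 of 16 hippocampal day libraries below the lowest night library.

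The 3 D-type cyclins, which carry growth signals to the G1/S step, went in different directions. Ccnd2 (cyclin D2; chromosome 6, 127125162 to 127152193, minus strand) had the lowest p of the whole list in both regions. Hippocampal libraries ran from 8.33 through 9.96 to 18.7 CPM by day and from 13.7 through 24.2 to 34.7 by night, a log2 change of -1.03 ± 0.13 (adjusted p 8.7e-08). Cortical libraries ran from 5.77 through 10.5 to 11.9 CPM by day and from 10.998 through 21.2 to 32.3 by night, a change of -1.10 ± 0.14 (adjusted p 2.4e-07). There, 15 of 16 night libraries lay above the highest day library. The SD was also lower by day, at 1.80 CPM against 6.76 by night in the frontal cortex and 2.63 against 6.31 in the hippocampus. In the hippocampus the SD was lower about in proportion to the median, so the relative spread was alike in both phases.

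Ccnd1 and Ccnd3, by contrast, were higher by day. Ccnd1 had medians of 71.3 CPM by day and 61.4 by night in the hippocampus, a change of 0.27 ± 0.07 (adjusted p 0.0034), and of 70.7 and 58.4 in the frontal cortex, a change of 0.34 ± 0.09 (adjusted p 0.0035). Ccnd3 had medians of 76.9 and 52.2 CPM in the hippocampus, a change of 0.57 ± 0.14 (adjusted p 0.0016), and of 79.8 and 53.6 in the frontal cortex, a change of 0.59 ± 0.15 (adjusted p 0.0026). Both ranges overlapped between the phases. The hippocampal calls of Ccnd1 and Ccnd3 and the cortical call of Ccnd1 were lost with library totals, at log2 changes that stayed above 0.

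E2f1, the transcription factor that these cyclins help to free, was lower by day in the hippocampus, from a median of 1.40 CPM by night to 1.05 by day (-0.49 ± 0.13; adjusted p 0.0036). Its cortical value was -0.19 ± 0.17 (adjusted p 0.39). Cdk2, the kinase of the G1/S step, had -0.06 ± 0.05 and -0.07 ± 0.05 and passed in neither region. Ccne1 and Ccne2, the E-type cyclins, were not tested for phase. Ccne1 ran from 0.222 to 1.34 CPM in the hippocampus, and from 0.0659 to 0.981 in the frontal cortex with 7 of 16 day libraries at 3 counts or fewer. Ccne2 ran from 0.0958 to 1.08 CPM over both regions.

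All 3 brakes were higher by day in the hippocampus, in calls that library totals did not keep. Of 18 other settings, 4 lost the hippocampal call of Wee1, 5 that of Cdkn1a and 4 that of Cdkn1b, with no change of sign. Wee1 was lost without replicate 3 or 4, and Cdkn1a without replicate 1 or 4. The cortical call of Cdkn1b was lost in 3 settings, library totals among them, and that of Cdkn1a in 1. Wee1, which holds Cdk1 inactive and is a known target of the circadian clock, had medians of 2.23 CPM by day and 1.71 by night, a log2 change of 0.44 ± 0.13 (adjusted p 0.0086). Its cortical value was 0.16 ± 0.17 (adjusted p 0.48). Cdkn1b was higher by 0.25 ± 0.06 in the hippocampus (adjusted p 4.3e-04) and 0.22 ± 0.05 in the frontal cortex (adjusted p 0.0015), with medians of 44.4 and 38.0 CPM and of 44.5 and 37.2 CPM. Cdkn1a (p21, a target of p53; chromosome 17, 29090976 to 29100727, plus strand) was higher by 0.48 ± 0.14 (adjusted p 0.0081) and 0.65 ± 0.17 (adjusted p 0.0029). Its libraries ran from 7.35 through 14.3 to 23.2 CPM by day and from 7.02 through 10.9 to 17.8 by night in the hippocampus, so that the phases overlapped. Cortical libraries ran from 7.004 through 12.8 to 16.8 CPM by day and from 4.25 through 7.18 to 17.7 by night.

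The day-night change was also taken within each condition. For all 11 called cortical genes the sign was the same in all 4 conditions, as it was for 12 of the 19 hippocampal ones. The exceptions were Mcm6, Mcm7, Pcna, Prim1, Tpx2, Wee1 and Cdkn1a. Hippocampal Wee1 differed between phases by a mean log2 of 0.44 in Soci, 0.86 in Cogn and 0.41 in Ctr0, and by -0.23 in Ctr1. The genes were called on the same libraries pooled, so a shared sign follows in large part from the call and is no separate support. The share over all called genes was not taken. Whether the day-night changes differ between conditions was not tested.

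Other cell types moved with phase as well, and their markers are given for the whole lists. Border macrophage markers were higher by day in 7 of 7 genes in the hippocampus, with sums of 197 to 423 CPM by day and 99.7 to 220 by night. They were higher in 6 of 7 in the frontal cortex, with sums of 221 to 457 CPM by day and 122 to 315 by night. Microglia markers were higher in 8 of 10 and in 5 of 10. Oligodendrocyte precursor markers were lower in 5 of 7 in both regions, with sums of 15.4 to 31.7 CPM by day and 22.8 to 54.3 by night in the hippocampus and 11.1 to 35.7 and 18.3 to 41.3 in the frontal cortex. Immature neuron markers were lower in 3 of 6 in the hippocampus and in 9 of 9 in the frontal cortex, where their sums were 7.27 to 24.0 CPM by day and 23.0 to 65.1 by night. Neural progenitor markers were lower in 4 of 6 and 3 of 6, and higher in 1 (hippocampus) and 0. Astrocyte markers were lower in 6 of 7 in both regions, and the remaining 1 was higher in the hippocampus. Neuron markers were lower in 2 of 8 and 7 of 8, and oligodendrocyte markers in 5 of 6 and 3 of 6. Endothelial markers were lower in 5 of 5 in the hippocampus, and choroid plexus markers in 6 of 6, with a median log2 change of -2.55. In the frontal cortex 0 endothelial and 0 choroid plexus markers passed by edgeR (unadjusted p under 0.05: 2 and 0). The neutrophil and monocyte list had 1 higher and 1 lower of 4 in the hippocampus and 0 of 4 in the frontal cortex (unadjusted p under 0.05: 0). Outside the lymphocyte list, no marker was at 3 counts or fewer in all libraries of a region and phase.

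Member calls were counted again with a score of such markers as a covariate. Several of these lists moved with phase, so a score can take up part of the phase difference of any gene. The counts are of members only, without the share of all genes, and a lost call was not shown to be particular to them. With the border macrophage score 1 hippocampal call remained, Ccnd2, and 2 cortical calls, Cenpf and Ccnd2. Some lost calls kept much of their size under that score: hippocampal Cenpf had a log2 change of 0.64 (adjusted p 0.11), Mcm2 of -0.49 (adjusted p 0.085) and Mki67 of 0.50 (adjusted p 0.37), while Top2a had 0.04 (adjusted p 0.96) and Cdkn1a 0.07 (adjusted p 0.91). With the immature neuron score 2 cortical calls remained, Cdkn1a and Cdkn1b. With the oligodendrocyte precursor score 10 hippocampal calls remained, and with the microglia score 7. Hippocampal Ccnd2 passed under all 18 other settings tried, single left-out libraries aside, at log2 changes between -1.27 and -0.82. Cortical Ccnd2 passed under 17 of the 18 and moved from -1.10 to -0.37 (adjusted p 0.32) with the immature neuron score, under which cortical Cenpf had 0.78 (adjusted p 0.061). The part of other cell types in the day-night changes was not tested beyond these fits.

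Cell cycle genes outside the list were counted from 3 further lists, to be read beside the shares of all genes higher and lower by day (23.4% and 18.8% in the hippocampus, 20.6% and 21.3% in the frontal cortex). Of 39 other replication genes tested in the hippocampus, 9 were higher and 9 lower by day. The largest rises were Mcm8 (0.42), a helicase of repair, and Prim2 (0.33), a primase subunit, and the largest falls Chaf1a (-0.68), a histone chaperone, and Gins2 (-0.48), a helicase partner. Of 36 tested in the frontal cortex 6 were higher and 4 lower, led by Prim2 (0.33) and Rpa2 (0.24), which binds single-stranded DNA, and by Tk1 (-0.93), thymidine kinase, and Chaf1a (-0.59). Of 36 other mitosis genes tested in the hippocampus 8 were higher, led by the condensin subunit Smc2 (0.57) and the kinetochore gene Ndc80 (0.54), and 1 was lower, the phosphatase Cdc25b (-0.51). Of 28 tested in the frontal cortex 5 were higher, led by Smc2 (0.52) and Prc1 (0.43), a spindle midzone protein. Lower there were 3, led by Ncapd2 (-0.43), another condensin subunit, and Cdc25b (-0.42). Of 36 other G1/S and checkpoint genes in the hippocampus 15 were higher, among them the transcription factor E2f3 (0.46), and 5 were lower, led by the kinase inhibitor Cdkn1c (-1.08) and Gadd45b (-0.63). Of 34 tested in the frontal cortex 12 were higher, among them E2f3 (0.38), and 4 lower, led by Cdkn2b (-0.67) and Pkmyt1 (-0.55), a kinase related to Wee1.

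The summed levels over the 16 groups restate the values of the same genes, and the most abundant genes weigh most in them. The 12 replication genes summed to 102.0 ± 8.76 CPM by day and 103.6 ± 5.78 by night in the hippocampus (SD, n = 16), and to 104.6 ± 8.10 and 97.6 ± 7.30 in the frontal cortex. The 18 mitosis genes summed to 31.97 ± 6.09 and 24.8 ± 5.21 CPM in the hippocampus and to 26.4 ± 5.48 and 20.6 ± 4.02 in the frontal cortex. The day mean of the mitosis sum was above the night mean in 4 of 4 conditions in both regions, by 1.17 to 1.37 times in the hippocampus and 1.05 to 1.62 times in the frontal cortex. For the replication sum this held in 2 of 4 conditions in the hippocampus (0.884 to 1.06 times) and 4 of 4 in the frontal cortex (1.04 to 1.11 times). No p is given for these sums.

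**Figure D4:**
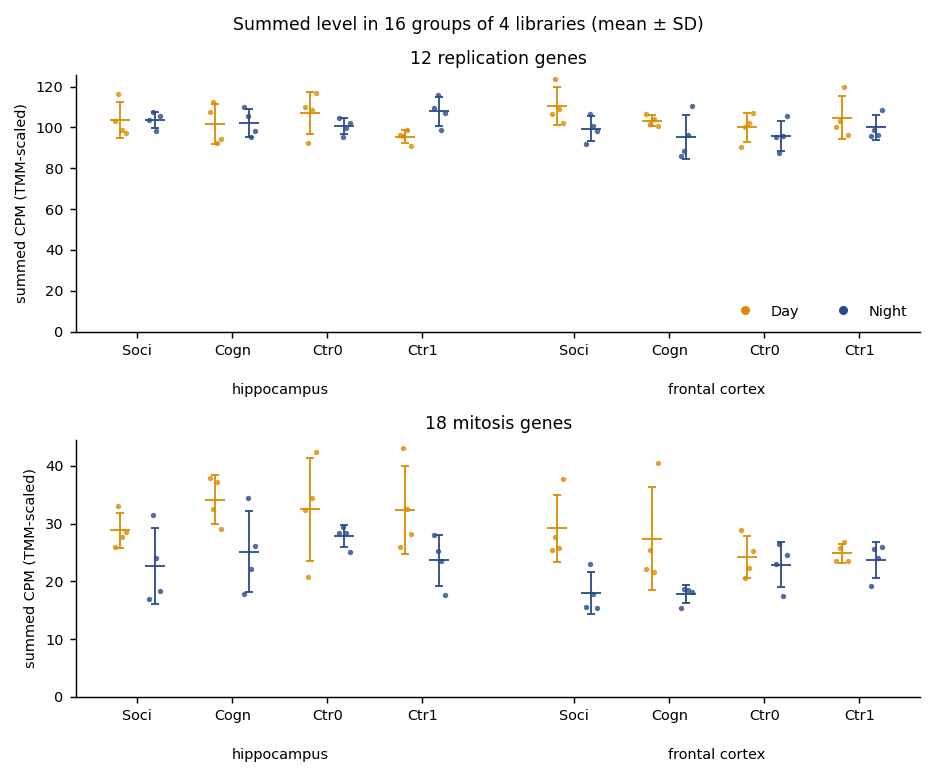
Summed CPM of the 12 replication genes (top) and 18 mitosis genes (bottom) in each of 16 groups, with 4 libraries as points and bars at mean ± SD. Replication sums stay between 86.2 and 124 CPM, while mitosis sums run from 15.3 to 43.1 CPM with day means above night means in all conditions.

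The libraries of a group spread widely for the mitosis genes. In hippocampal Day Ctr0 the mitosis sum ran from 20.7 to 42.4 CPM over 4 libraries. One library often held the highest value for many genes at once: Day Ctr1 replicate 2 and Night Soci replicate 2 of the hippocampus each led their group in 12 of the 18 genes, as did Day Cogn replicate 4 of the frontal cortex.

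The second comparison asked whether the regions differed, averaged over phase. Of 38 genes tested over all 64 libraries, 8 differed (all genes, 16.6%), 7 higher in the hippocampus (all genes, 10.4%) and 1 lower (all genes, 6.17%). The mitosis genes Mki67 (log2 difference 0.44 ± 0.12, adjusted p 0.0074), Cdc20 (0.46 ± 0.12, adjusted p 0.0065), Cenpe (0.41 ± 0.13, adjusted p 0.023) and Ccna2 (0.34 ± 0.10, adjusted p 0.012) were higher in the hippocampus. So were Ccne2 (0.47 ± 0.17, adjusted p 0.045), Wee1 (0.40 ± 0.11, adjusted p 0.0062) and Cdkn1a (0.35 ± 0.11, adjusted p 0.027). Pola1 was lower (-0.16 ± 0.05, adjusted p 0.019). Median differences were 0.20 for the 16 mitosis genes tested and 0.05 for the 12 replication genes, beside 0.00 over all genes. With library totals 2 calls remained, 1 in each direction, while the median of all genes moved to -0.11. Without replicate 1, 2 or 3 the calls were 4, 3 and 2. These are counts of members only, without the share of all genes. The call of Ccne2 was lost in 9 of 17 other settings, that of Cdkn1a in 7 of 18 and that of Cenpe in 6 of 18. The remaining regional calls were each lost in 3 to 5 settings.
Ccnb1 and Bub1 were not tested. In the same fit oligodendrocyte precursor markers were higher in the hippocampus in 5 of 7 genes and choroid plexus markers in 6 of 6, while immature neuron markers were lower in 6 of 9. With the oligodendrocyte precursor score as a covariate 1 member call remained. Their part in the regional differences was not tested further.

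The day-night change did not pass a test of difference between the regions for any of the 38 genes (0 by edgeR and 0 by DESeq2; all genes, 1.19%). At an unadjusted p under 0.05 there were 3, all helicase subunits: Mcm6 (hippocampal minus cortical change -0.33 ± 0.11, adjusted p 0.13), Mcm2 (-0.40 ± 0.13, adjusted p 0.14) and Mcm4 (-0.29 ± 0.11, adjusted p 0.26). So the genes called in the hippocampus alone were not shown to differ from the frontal cortex. With the immature neuron score as a covariate Mcm6 (-0.48, adjusted p 0.018) and Mcm4 (-0.41, adjusted p 0.0495) passed. Under that covariate 4169 of all genes had an unadjusted p under 0.05 by edgeR, against 1587 in the main test. The members were counted at an adjusted p, a different threshold. Whether the gain was particular to members was not tested. Immature neuron markers themselves passed the main test in 5 of 9 genes. Of the other replication genes, Cdt1 (-0.44), which loads the helicase, and Rpa1 (-0.32), which coats single-stranded DNA, did pass in the main test. So did Cdkn1c (-0.81) and Gadd45g (-0.79) of the other G1/S and checkpoint genes.

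The third comparison asked whether the 4 conditions differed, averaged over phase. By edgeR 0 of 40 genes tested in the hippocampus (all genes, 0%) and 0 of 39 in the frontal cortex (all genes, 0%) did so. At an unadjusted p under 0.05 there were 1 and 2. In data simulated at this depth, the same test found 196 and 195 of 200 genes changed 2-fold, all drawn from genes at 4 CPM or more. The change was put in Soci alone, in both phases, and each gene was drawn independently of the others. Recovery of smaller changes, or of changes in a single phase, was not measured. Most mitosis genes lay below 4 CPM, and the power for them was not measured. The lowest hippocampal p of the list was that of Cdkn1a (0.00088 by edgeR's quasi-likelihood test; adjusted p 0.67), singled out here after its values were seen. The DESeq2 fit used a likelihood ratio test that also covered condition differences depending on phase, so it was not the same comparison. By that test Cdkn1a had an adjusted p of 0.047, and no other member was called. Its day libraries in Ctr1 held 9.73, 8.55, 10.3 and 7.35 CPM, those in Cogn 18.6, 22.1, 16.3 and 21.1, those in Soci 23.2, 17.97, 11.4 and 15.1, and those in Ctr0 12.6, 11.2, 17.2 and 13.4. All 4 Ctr1 libraries thus lay below all 4 of each other condition by day. By night the group means were 9.96 CPM in Soci, 12.9 in Cogn, 10.99 in Ctr0 and 9.93 in Ctr1, and the conditions overlapped. In the frontal cortex the day means ran from 10.5 CPM in Ctr1 to 14.3 in Cogn.

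**Figure D5:**
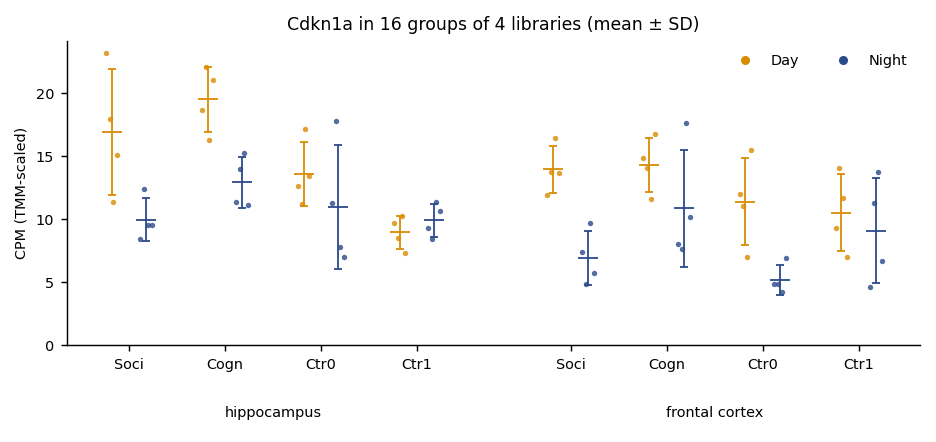
Cdkn1a level in CPM in each of 16 groups, with 4 libraries as points and bars at mean ± SD. The 4 hippocampal Day Ctr1 libraries, at 7.35 to 10.3 CPM, lie below every other hippocampal day library, and the 4 Day Cogn libraries reach 16.3 to 22.1 CPM.

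Across the 16 groups the mean level varied least for Mcm3 (19.1 to 22.9 CPM, 1.20 times) and Rrm1 (11.2 to 13.9 CPM, 1.24 times). Among genes with group means above 2 CPM it varied most for Cdkn1a (5.21 to 19.5 CPM, 3.75 times), Mki67 (2.85 to 9.35 CPM, 3.28 times) and Ccnd2 (8.78 to 24.6 CPM, 2.80 times). The highest 8 group means were all day groups for Cenpf and Ccnd1, and all night groups for Ccnd2 and Mcm5.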

How the data were processed

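Total RNA was depleted of ribosomal RNA, and the study's processing notes name STAR 2.7.3a and featureCounts (Subread 2.0.0) on build GRCm38.p5. The authors deposited whole-number counts for each gene, with no scaling for depth or length. How strand and reads with several positions were handled was not given in the sources used here. The 49671 Ensembl identifiers were matched to GENCODE M21 symbols (49412 matched), and exon lengths came from the same annotation. No pair of replicates held the same library (smallest chi-square per degree of freedom 7.64 over 96 pairs).

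Counts were filtered with filterByExpr, scaled by TMM and tested in edgeR 4.0.16 (limma 3.58.1, R 4.3.3) with its quasi-likelihood F test. One fit per region compared 16 day with 16 night libraries, one per region with 8 means tested the 4 conditions, and one over all 64 libraries with 4 means tested region and region by phase. P-values were adjusted by Benjamini and Hochberg over all genes tested, with a threshold of 0.05. Log2 changes are day over night and log2 differences hippocampus over frontal cortex. The SE was taken as the size of the value over the root of F. Levels are counts scaled to library depth with TMM factors (CPM). Each fit was tested on simulated data with 200 genes changed 2-fold, all at 4 CPM or more, of which it recovered 190 to 200. Genes were drawn independently of each other, and the recovery of lower genes and of smaller changes was not measured. Alternatives were library totals, median-of-ratios factors, DESeq2 1.42.0, other count filters, left-out libraries, blocks and marker scores.

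The members and lists were chosen with earlier results of these data known. All members are accounted for, and those past the threshold in a fit are named with their values. In each further cell cycle list the 2 largest rises and falls past the threshold are named per region. Promoters and their coordinates are RefSeq's, on GRCm38.p6, a later patch of the same build. The marker lists were those of microglia, border macrophages, immature neurons, neural progenitors, oligodendrocyte precursors, neurons, astrocytes, oligodendrocytes, endothelium, choroid plexus and ependyma, neutrophils and monocytes, and lymphocytes, the last with 0 genes tested. A gene counted in the list of other G1/S and checkpoint genes is not reported here by name.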

Additional observations from a re-analysis of the deposited data

Results flagged for a closer look

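A library was picked out where, in a group of 4, its gap to the nearest other library, as a share of the range of the group, was over the critical value of Dixon's test. This was done for Mki67, Ccnd2, Cdkn1a and the sums of the replication and mitosis genes over the 16 groups, 80 groupings in all, of which chance alone picks out about 4. There were 2. In frontal cortex Day Cogn, replicate 4 had 12.5 CPM of Mki67 and the other libraries 4.60 to 5.37. The same library was the highest of its group for 12 of the 18 mitosis genes, and without any 1 library the cortical change of Mki67 was 0.66 or more on the log2 scale. In frontal cortex Night Cogn, replicate 1 had a mitosis sum of 15.4 CPM and the other libraries 18.2 to 18.8.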

How the results depend on the processing

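Of 19 hippocampal day-night calls, library totals alone left 9, the border macrophage score as a covariate 1, the oligodendrocyte precursor score 10 and the microglia score 7. Leaving out one replicate number or library left 12 to 20. Of 11 cortical calls, library totals left 7, and the immature neuron and border macrophage scores 2 each. These are counts of members only, and a score that moves with phase can lower the calls of any gene. Of 8 regional calls, library totals left 2, log2 library total as a covariate 5 and the oligodendrocyte precursor score 1, and leaving out one replicate number left 2 to 10. The 0 hippocampal condition calls became 8 with library totals (3814 of all genes). DESeq2 gave 1 (Cdkn1a), by a test that also covered condition differences depending on phase. The 0 calls of region by phase became 2 with the immature neuron score. With that score 4169 of all genes had an unadjusted p under 0.05 by edgeR, against 1587 in the main fit. The causes were not tested. No called gene changed sign under any alternative tried. Leaving out each of the 32 libraries in turn, chosen after seeing the data, kept both day-night counts within 1.5 times. Among called genes it ended calls of Mcm7 (without Day Soci 2), Prim1 and Tpx2, all hippocampal. It added calls of hippocampal Cenpe and Kif11 (without Day Ctr0 2), of cortical Rrm1 (without Day Ctr0 1 or Night Cogn 4) and of cortical Mcm4 (without any 1 of 9 libraries). Deviations of same-numbered libraries did not show pairing throughout (median r 0.12 between cortical day and night, -0.02 between hippocampal day and night and 0.0087 between regions). Between regions single pairs ran from -0.74 (Day Ctr0 1) to 0.78 (Night Cogn 1), with Night Cogn 3 at 0.72 and Night Soci 1 at 0.70. The own number was best in 7 of 16 cortical, 2 of 16 hippocampal and 11 of 32 regional pairs. Shared animals were therefore not excluded for some pairs, and the main region fit treats the libraries as separate. With the replicate number as a block the calls were 19, 11, 8 and 0 for hippocampal phase, cortical phase, region and region by phase, and 0 for conditions. Counts were too low for a day-night test in both regions for 5 of 18 mitosis and 2 of 7 G1/S genes.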
